A study of Rattus norvegicus with 12 samples.

Results

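The effect of TCDD on gene expression was compared between 2 tissues of male Wistar rat fetuses, the pituitary and the hypothalamus, as the pituitary effect (TCDD minus control) minus the hypothalamus effect. Only probes detected above background (detection p below 0.05) on all 6 control arrays were described, so that each tissue started from a detected level. These were 9634 of the 22523 probes, and 7195 of them carried a gene symbol, for 7075 genes. Where a control level lay near background, a fall still had little room. At the edge of that rule, the highest control detection p was 0.0497 for the Myo1d probe just inside (difference 0.24) and 0.05091 for probe ILMN_1350145 just outside (difference −0.64). TCDD is the dioxin 2,3,7,8-tetrachlorodibenzo-p-dioxin. The pregnant dams received it by mouth in corn oil on gestational day 15, at 1 µg/kg in the series text and 1 mg/kg in the sample labels, and fetal tissue was taken on gestational day 20. The 4 groups, control pituitary, TCDD pituitary, control hypothalamus and TCDD hypothalamus, each had 3 arrays, and the labels do not say what the control dams were given. Exposure was through the dam, so an effect in 1 fetal tissue is not shown to start there. Nothing in the labels ties the arrays of a group to separate dams, so the p-values reflect the spread among these arrays only, and that spread may be technical.

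TCDD binds the aryl hydrocarbon receptor (AhR), a transcription factor that pairs with ARNT and raises xenobiotic-metabolising genes through a short DNA motif. The hypothalamus makes the releasing hormones that drive the pituitary, and the pituitary gonadotroph makes luteinizing and follicle-stimulating hormone from a shared α-subunit and separate β-subunits. Pituitary genes such as Pitx1 and Pou1f1 were detected on every pituitary array and no hypothalamus array, and Oxt and Nkx2-1 on every hypothalamus array and no pituitary array. Sim1, a hypothalamic transcription factor, was detected on no array. Other markers were less separate. Tshb was detected on 1 control and 2 TCDD hypothalamus arrays, and Prl on 1 of each. Avp and Agrp were detected on every pituitary array, Gad1 on 2 control and 3 TCDD pituitary arrays, and Pmch on 2 control pituitary arrays. Pomc and Rax were detected on every array of both tissues. Each array holds the RNA of a mixed tissue, in which fewer cells of a type and less RNA per cell cannot be told apart.

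Arrays were of similar quality, with 47.4% to 54.5% of probes detected and correlations over the described probes of 0.982 to 0.994 within a group. Pituitary TCDD replicate 5 stood apart. On it 209 probes exceeded the mean of the other pituitary arrays by over 1 log2 unit and 26 lay that far under it, against 5 to 56 above and 3 to 35 below on the 11 other arrays, each set against its own tissue. Results that rest on it are given with and without it.

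The tissues shared few responses. Over the 9634 probes the pituitary and hypothalamus effects had a Pearson correlation of −0.01 and a Spearman correlation of −0.02, a description across probes, which are not independent replicates. The effects had a standard deviation of 0.22 on the log2 scale in the pituitary and 0.20 in the hypothalamus. Effects beyond 1 log2 unit were seen at 33 probes in the pituitary, 25 of them higher, and at 7 in the hypothalamus, 4 of them higher, with 2 probes in common. The difference of the effects passed at 14 probes, 9 with the higher effect in the pituitary and 5 with the lower (limma, Benjamini-Hochberg adjusted p below 0.05). Of the described probes these were 0.145%, 0.0934% and 0.0519%. Among all 13018 tested probes 0.200% passed, 0.123% with the higher effect in the pituitary and 0.0768% with the lower. At an unadjusted p below 0.05 there were 1167 probes, 12.1% of those described, against 11.8% of all tested. Without pituitary TCDD replicate 5 the difference passed at 15 probes, of which 12 were among the 14. The count fell below 10 without hypothalamus control replicates 1 (8) or 3 (4), hypothalamus TCDD replicates 1 (9) or 4 (7), pituitary control replicates 1 (6) or 2 (5), or pituitary TCDD replicates 1 (7) or 2 (8). The median standard error of a difference was 0.18, so differences of the size of that error were not detectable with 3 arrays a group.

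**Figure D1:**
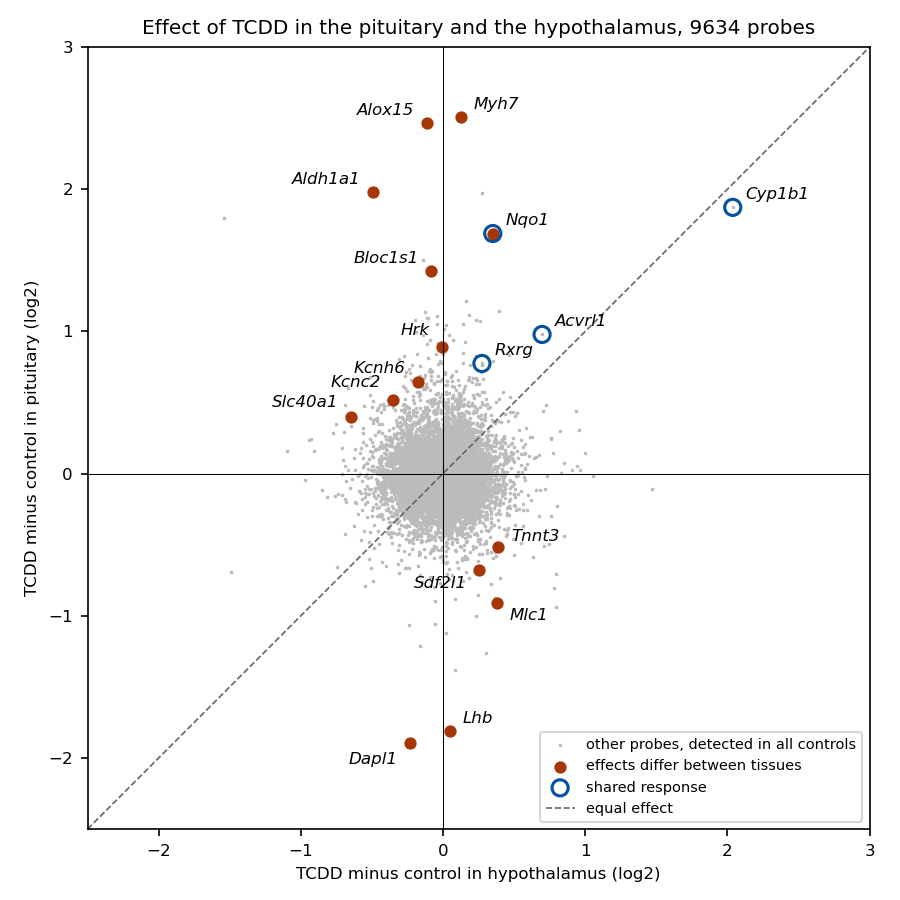
Effect of TCDD (TCDD minus control, log2) in the hypothalamus on the x axis and in the pituitary on the y axis, 1 point per described probe; filled points passed the test of the difference, open rings are shared responses and the dashed line marks equal effects. Filled points lie near the vertical axis or in the quadrants of opposite sign, except Nqo1, which is also ringed at 0.35 and 1.69, and Cyp1b1 lies close to the dashed line at 2.04 and 1.87.

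Shared responses were those that passed the test of the mean effect over the tissues and had the same sign, with an unadjusted p below 0.05, in each. There were 4, all higher with TCDD: Cyp1b1, Nqo1, Acvrl1 and Rxrg. These were 0.0415% of the described probes. No other tested probe met the rule, so the same 4 were 0.0307% of all tested. The mean effect itself passed at 0.215% of all tested probes, 0.138% higher and 0.0768% lower. It passed at 14 of the described probes (0.145%), 12 higher (0.125%) and 2 lower (0.0208%). Of the other 10, Myh7, Bloc1s1, Alox15, Lhb, Hrk, Dapl1, Thbs4, Galnt18, Gdap1l1 and ILMN_1650994, each had a hypothalamus effect with an unadjusted p above 0.05. The count of shared responses was 9 without pituitary TCDD replicate 5, 15 without hypothalamus control replicate 5, 7 without hypothalamus TCDD replicate 1, and 2 without hypothalamus control replicate 1 or pituitary control replicate 2. The 14 calls on the mean effect became 26 without hypothalamus control replicate 5 and 20 without pituitary TCDD replicate 5. They became 5, 8, 9, 9, 5 and 8 without hypothalamus control replicate 1, hypothalamus control replicate 3, hypothalamus TCDD replicate 4, pituitary control replicate 1, pituitary control replicate 2 and pituitary TCDD replicate 2 in turn.

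Cyp1b1, a cytochrome P450 that oxidises aromatic hydrocarbons and steroids and a known AhR target, had the largest mean effect of all 9634 probes. Its normalized log2 level was 10.99, 10.73 and 11.23 on the control pituitary arrays and 13.02, 12.84 and 12.71 with TCDD. In the hypothalamus it was 7.15, 7.57 and 5.95 in controls and 8.71, 9.29 and 8.79 with TCDD. The groups did not overlap in either tissue, and the lowest value was that of hypothalamus control replicate 5. The mean effect was 1.95 ± 0.23 (SE, n = 3 arrays a group, limma adjusted p = 0.00291), a 3.88-fold rise. The pituitary effect was 1.87 ± 0.32 and the hypothalamus effect 2.04 ± 0.32, which differed by −0.17 (95% interval −1.15 to 0.82, adjusted p = 0.904). The interval is wide, so with 3 arrays a group the effects of the tissues are not shown to be equal for this gene. A difference of a size within the interval is not excluded. With the authors' processed values the difference was 1.03 (adjusted p = 0.0680, within 0.0680 to 0.995 over the alternatives) and the mean effect 1.31.

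Nqo1, a quinone reductase induced through AhR and NRF2, passed both the mean effect and the difference. In the pituitary its level was 9.82, 9.81 and 9.67 in controls and 11.53, 11.35 and 11.47 with TCDD. In the hypothalamus it was 9.83, 9.63 and 9.57 in controls and 9.83, 10.16 and 10.08 with TCDD. The control levels of the tissues lay together and the pituitary groups stood well apart, while in the hypothalamus the highest control and the lowest TCDD array met at 9.83. The mean effect was 1.02 ± 0.08 (adjusted p = 5.57e-05). The effect was 1.69 ± 0.11 in the pituitary (3.22-fold) and 0.35 ± 0.11 in the hypothalamus (1.27-fold, adjusted p = 0.317, unadjusted p = 0.00826), a difference of 1.34 ± 0.16 (95% interval 1.00 to 1.68, adjusted p = 0.00385). Neither result lost its call on leaving out any 1 array. The mean effect kept its call under every alternative, while the difference lost it with a fixed block for the replicate number (adjusted p = 0.127). Nqo1 did not meet the shared rule with that block or with median scaling, where its hypothalamus effect was 0.20.

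Acvrl1 encodes ALK1, a receptor for the TGF-β family best known in endothelium. Its pituitary level was 9.35, 9.25 and 9.61 in controls and 10.55, 10.64 and 9.95 with TCDD. It was at 7.43, 7.28 and 7.47 in control and 7.88, 8.30 and 8.09 in TCDD hypothalami. TCDD arrays were above control arrays in both tissues, with pituitary TCDD replicate 5 the lowest of its group. Its mean effect was 0.84 ± 0.12 (adjusted p = 0.0148) and its difference 0.28 (95% interval −0.26 to 0.82, adjusted p = 0.687). The mean effect lost its call without hypothalamus control replicates 1 (adjusted p = 0.0554) or 3 (0.0587) or pituitary control replicate 2 (0.0619), and with the authors' values (0.0548), within 0.00106 to 0.118 over all alternatives.

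Rxrg, a retinoid X receptor of thyrotrophs and of some forebrain neurons, had pituitary levels of 11.23, 11.25 and 11.08 in controls and 11.95, 12.07 and 11.86 with TCDD. Hypothalamus levels were 10.53, 10.65 and 10.33 in controls and 10.93, 10.75 and 10.66 with TCDD. The hypothalamus groups met closely, with 10.65 as the highest control and 10.66 as the lowest TCDD value. The mean effect was 0.52 ± 0.08 (adjusted p = 0.0177), from 0.77 ± 0.11 in the pituitary and 0.27 ± 0.11 in the hypothalamus, and the difference of 0.50 (95% interval 0.16 to 0.85) did not pass over all probes (adjusted p = 0.275). Its mean effect lost the call without hypothalamus control replicate 1 (adjusted p = 0.0555), pituitary control replicate 2 (0.0544) or pituitary TCDD replicate 2 (0.0547) and with median scaling (0.104), within 0.00661 to 0.104 over all alternatives.

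Promoters of 3 of these 4 genes, Cyp1b1, Nqo1 and Rxrg, were matched in RefSeq (build GRCr8) and are printed because Cyp1b1 and Nqo1 are known AhR targets and the core can be looked for in all 3. Each runs from 250 bases before the annotated gene start to 50 bases after it, 5′ to 3′ on the gene's strand. Cyp1b1 lies at chr6:21094315-21094614 on the plus strand, Nqo1 at chr19:52220218-52220517 on the minus strand and Rxrg at chr13:82276237-82276536 on the plus strand. Capitals mark GCGTG, the core that AhR binds, and its reverse complement CACGC.
Cyp1b1: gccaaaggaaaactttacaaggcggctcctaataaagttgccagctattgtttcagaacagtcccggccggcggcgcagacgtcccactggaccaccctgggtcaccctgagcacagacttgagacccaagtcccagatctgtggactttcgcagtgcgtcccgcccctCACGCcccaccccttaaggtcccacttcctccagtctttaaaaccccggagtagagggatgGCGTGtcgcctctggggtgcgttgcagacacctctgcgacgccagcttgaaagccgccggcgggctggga
Nqo1: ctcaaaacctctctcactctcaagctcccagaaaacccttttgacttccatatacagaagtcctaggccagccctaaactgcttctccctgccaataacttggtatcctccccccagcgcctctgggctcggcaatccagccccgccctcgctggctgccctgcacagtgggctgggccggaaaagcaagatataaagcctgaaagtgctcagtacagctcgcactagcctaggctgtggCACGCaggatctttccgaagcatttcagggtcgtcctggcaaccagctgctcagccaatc
Rxrg: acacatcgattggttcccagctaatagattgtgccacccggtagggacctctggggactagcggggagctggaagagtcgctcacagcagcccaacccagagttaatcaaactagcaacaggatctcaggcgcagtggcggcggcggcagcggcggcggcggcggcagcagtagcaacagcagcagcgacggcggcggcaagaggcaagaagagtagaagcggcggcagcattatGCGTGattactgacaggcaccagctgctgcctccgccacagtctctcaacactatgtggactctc
The core began at positions −81 and −20 from the gene start in Cyp1b1, at −10 in Nqo1 and at −15 in Rxrg. In RefSeq, 29.7% of all 33469 promoters held the core on either strand, so a match is common and describes the letters only. Of the 14 genes whose effects differed between tissues, 12 had a promoter entry and 5 of these held the core.

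No fall met the shared rule with all 12 arrays, a count that depended on single arrays. It became 9 falls without hypothalamus control replicate 5, 3 without hypothalamus TCDD replicates 1 or 3 or pituitary TCDD replicate 5, and 1 without hypothalamus control replicate 3 or pituitary control replicate 3. The falls of smallest p for the mean effect with the same sign in both tissues were Dapl1, described with the differences, Mal2 and Tmtc3. Mal2, a membrane protein of epithelial vesicle transport, had levels of 7.93, 8.14 and 7.63 in control and 6.91, 7.11 and 7.31 in TCDD pituitaries. In the hypothalamus it had 8.85, 8.50 and 8.18 in controls and 7.90, 8.08 and 7.91 with TCDD. All TCDD arrays lay below all control arrays of the same tissue, yet the mean effect of −0.67 ± 0.12 missed the threshold (adjusted p = 0.0587). It passed without pituitary TCDD replicate 5 (−0.72, adjusted p = 0.0399), hypothalamus control replicate 5 (0.0250) or pituitary control replicate 3 (0.0426), and with median scaling (0.0443) and array weights (0.0199), within 0.0199 to 0.226 over all alternatives. Tmtc3, an O-mannosyltransferase of the endoplasmic reticulum, had a measured mean effect of −0.52 ± 0.10 (adjusted p = 0.0697). It was detected on 1 of 3 TCDD hypothalamus arrays, so the size of its fall there, and of the mean, is not exact. Without hypothalamus TCDD replicate 3, the array that detected it, the mean effect passed (adjusted p = 0.0273, within 0.0273 to 0.224 over all alternatives). Both tissues had an unadjusted p below 0.05 in the same direction at 21 higher and 37 lower probes, 0.218% and 0.384% of those described against 0.223% and 0.307% of all tested.

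**Figure D2:**
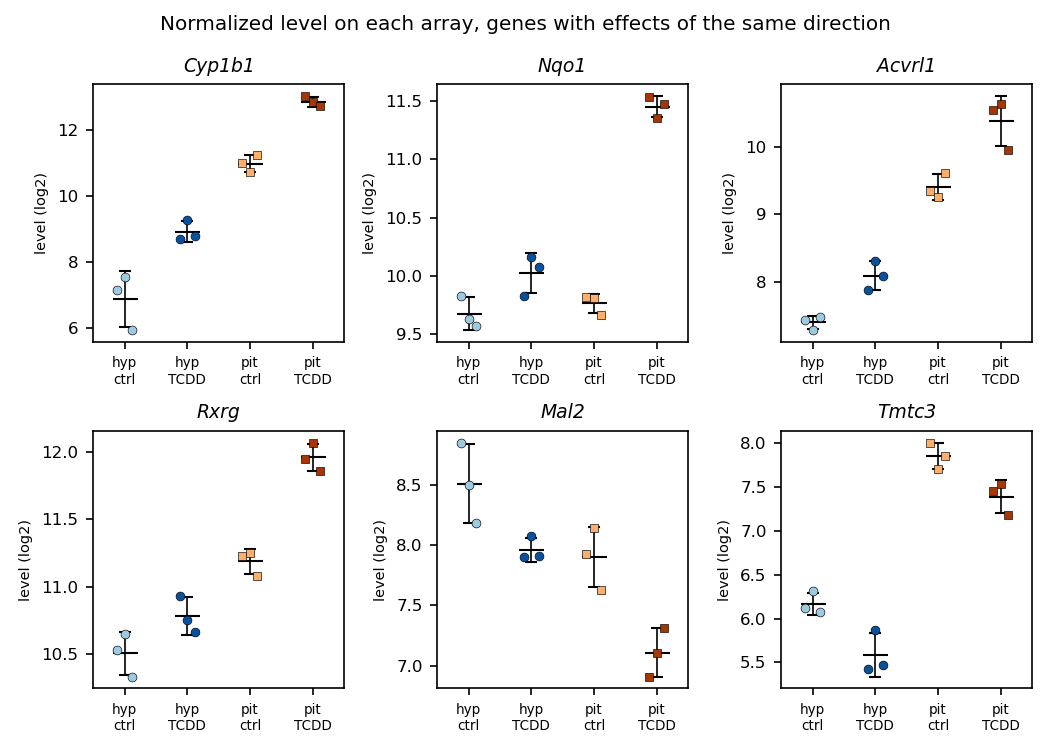
Normalized log2 level (y axis) of the 4 shared responses and of Mal2 and Tmtc3 on each array by tissue and treatment (x axis); points are arrays, horizontal bars group means and error bars 1 SD, n = 3. In each panel the TCDD arrays of a tissue lie on 1 side of its controls, with Nqo1 in the hypothalamus meeting at 9.83, and the y axes differ between panels.

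The largest differences were rises in the pituitary with no call in the hypothalamus. Alox15, a lipoxygenase that oxygenates polyunsaturated fatty acids, was at 6.86, 6.78 and 7.36 in control pituitaries and at 10.01, 9.48 and 8.90 with TCDD. Hypothalamus levels were 6.37, 6.91 and 6.65 in controls and 6.81, 6.32 and 6.46 with TCDD. The pituitary groups were far apart and the hypothalamus groups overlapped. The pituitary rise of 2.47 ± 0.26 against −0.11 ± 0.26 gave a difference of 2.58 (95% interval 1.79 to 3.36, adjusted p = 0.0130). It gave adjusted p = 0.0526 without hypothalamus control replicate 3, within 0.00186 to 0.127 over all alternatives. The authors' values gave 1.36 (0.0415).

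Aldh1a1, which oxidises retinaldehyde to retinoic acid, had pituitary levels of 8.79, 8.84 and 8.64 in controls and 10.61, 11.11 and 10.49 with TCDD. Its hypothalamus levels were 9.86, 9.50 and 10.62 in controls and 9.84, 9.19 and 9.48 with TCDD. The control pituitary was the lowest of the 4 groups and the TCDD pituitary overlapped the control hypothalamus. The difference was 2.47 (95% interval 1.68 to 3.26, adjusted p = 0.0185), from 1.98 ± 0.26 and −0.49 ± 0.26. The call was lost without hypothalamus TCDD replicate 4 (adjusted p = 0.0530) or pituitary control replicate 2 (0.0506), within 0.00830 to 0.180 over all alternatives.

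Myh7, the β-myosin heavy chain of heart and slow muscle, was at 8.13, 8.10 and 7.93 in control pituitaries and at 10.62, 10.69 and 10.37 with TCDD. In the hypothalamus it was at 9.99, 9.71 and 9.90 in controls and between 9.86 and 10.12 with TCDD. The control pituitary lay below both hypothalamus groups and the TCDD pituitary above them. This gave the smallest p of the 9634 probes, with a pituitary rise of 2.51 ± 0.12 (5.68-fold), a hypothalamus effect of 0.13 ± 0.12 and a difference of 2.38 (95% interval 2.01 to 2.74, adjusted p = 2.75e-05). It passed under every alternative run, with differences of 1.66 to 2.49.

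Bloc1s1, a subunit of a complex that forms lysosome-related organelles, was at 10.29, 9.99 and 10.45 in control and 11.69, 11.65 and 11.66 in TCDD pituitaries. The hypothalamus had 11.94 to 12.21 in controls and 11.91, 11.96 and 12.03 with TCDD. As for Aldh1a1 and Myh7, the control pituitary lay below the hypothalamus, and the hypothalamus groups overlapped. The difference was 1.51 (95% interval 1.14 to 1.87, adjusted p = 0.00267) and kept its call on leaving out any 1 array.

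Hrk encodes a pro-apoptotic BH3-only protein of neurons, and its pituitary level went from 7.72, 7.44 and 7.72 in controls to 8.46, 8.53 and 8.54 with TCDD. Its hypothalamus level was 9.35, 9.43 and 9.29 in controls and 9.35, 9.20 and 9.49 with TCDD. The pituitary groups were apart and both stayed below the hypothalamus, where the groups overlapped. The difference of 0.89 (95% interval 0.57 to 1.22, adjusted p = 0.0349) stayed called when hypothalamus TCDD replicate 4 was left out and missed the threshold on leaving out each of the others (0.0594 to 0.108). Its adjusted p ranged from 0.0105 to 0.186 across the alternatives, and the authors' values gave 0.46 (0.0463).

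Kcnh6, a potassium channel of the ERG family, had pituitary levels of 8.81, 8.59 and 8.74 in controls and 9.44, 9.41 and 9.23 with TCDD. In the hypothalamus they were 8.02, 7.98 and 8.18 in controls and 7.87, 7.90 and 7.89 with TCDD. The hypothalamus groups did not overlap either, with TCDD lower by a small step (−0.18 ± 0.10, unadjusted p = 0.0989). The difference was 0.82 (95% interval 0.52 to 1.12, adjusted p = 0.0349). It stayed called when pituitary TCDD replicate 5 was left out and missed the threshold on leaving out each of the others (0.0629 to 0.129). Its adjusted p ranged from 0.0174 to 0.279 across the alternatives, and the difference was 0.50 with the authors' values. Of the 9 genes with the higher effect in the pituitary, 5 had a higher control level in the hypothalamus, against 54.6% of all described probes.

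The pituitary groups did not overlap for any of the 14 genes, as for 20.0% of all tested probes, and the hypothalamus groups did not overlap for 7, as for 13.9%. In both tissues at once the groups were apart at 298 described probes, 3.09% of them against 2.76% of all tested. The test of the difference uses these same arrays, so the counts add no support to it.

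The lower effects were led by Lhb, which encodes the β-subunit of luteinizing hormone. Its pituitary level was 11.80, 11.94 and 11.09 in controls and 9.80, 9.87 and 9.74 with TCDD. In the hypothalamus it was 6.32, 5.75 and 6.13 in controls and 6.11, 6.37 and 5.88 with TCDD, close to the lowest signal of any detected probe, which was 5.42 to 5.74 across the arrays. The pituitary groups were apart and the hypothalamus groups overlapped, at a level that left little room for a fall. The difference was −1.86 (95% interval −2.51 to −1.21, adjusted p = 0.0270), with a pituitary fall to a level 3.51-fold lower and a hypothalamus effect of 0.05 ± 0.21. The call held without hypothalamus control replicate 1, hypothalamus TCDD replicate 4, pituitary control replicate 3 or pituitary TCDD replicate 5. It was lost without any other single array (0.0602 to 0.0810) and with no filter on dim probes (0.0602), within 0.00209 to 0.108 over all alternatives.

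Dapl1 had pituitary levels of 9.81, 9.66 and 9.52 in controls and 7.51, 7.91 and 7.89 with TCDD. Hypothalamus levels were 6.57, 6.03 and 6.51 in controls and 6.48, 5.97 and 5.96 with TCDD, again near the lowest detected signal. The pituitary fall was 3.71-fold. Hypothalamus groups overlapped, and the effect there was −0.23 ± 0.18 (unadjusted p = 0.224), so the mean effect passed (−1.06 ± 0.13, adjusted p = 0.00370) through the pituitary. The difference was −1.66 (95% interval −2.22 to −1.11, adjusted p = 0.0221). It was lost without hypothalamus control replicate 3 (adjusted p = 0.0594), pituitary control replicates 1 (0.0629) or 2 (0.0720) or pituitary TCDD replicate 1 (0.0519), within 4.57e-04 to 0.0720 over all alternatives.

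Opposed responses had a called difference and tissue effects of opposite sign at an unadjusted p below 0.05 in each. They were seen for 5 genes, 0.0519% of the described probes. No other tested probe met the rule, so the same 5 were 0.0384% of all tested. Slc40a1 and Kcnc2 were higher in the pituitary and lower in the hypothalamus, and Mlc1, Sdf2l1 and Tnnt3 the reverse. None of the hypothalamus effects passed over all probes (adjusted p = 0.235 to 0.409). The genes that met the rule changed with single arrays. Of these 5 genes 4 met it without pituitary TCDD replicate 5 (not Tnnt3), 3 without hypothalamus TCDD replicate 3 (Slc40a1, Kcnc2 and Sdf2l1) and 2 without hypothalamus control replicate 5 (Kcnc2 and Mlc1) or pituitary control replicate 3 (Slc40a1 and Kcnc2). None of the 5 met it without hypothalamus control replicates 1 or 3, hypothalamus TCDD replicates 1 or 4 or pituitary control replicate 1, and 1 met it without each of the others. Without hypothalamus TCDD replicate 1 the rule counted 4 opposed responses, all of them other probes. Tissue effects of opposite sign at that unadjusted p, without regard to the difference, were seen at 35 probes higher in the pituitary and 36 lower, 0.363% and 0.374% of those described against 0.307% and 0.323% of all tested.

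Slc40a1 encodes ferroportin, the cellular iron exporter. Pituitary levels were 9.77, 9.61 and 9.91 in controls and 10.25, 10.28 and 9.93 with TCDD, and hypothalamus levels were 9.06, 9.13 and 9.21 in controls and 8.49, 8.56 and 8.40 with TCDD. The hypothalamus groups lay well apart, and in the pituitary TCDD replicate 5 was just above the highest control. This was the only one of the 14 in which the hypothalamus effect, −0.65 ± 0.12 (adjusted p = 0.235), was larger in size than the pituitary effect, 0.40 ± 0.12 (adjusted p = 0.193). The difference of 1.05 (95% interval 0.69 to 1.40, adjusted p = 0.0256) passed without hypothalamus TCDD replicate 3, pituitary control replicate 3 or pituitary TCDD replicate 5. It was lost without any other single array (0.0511 to 0.0838), within 0.00699 to 0.232 over all alternatives. The authors' values gave 0.69.

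Kcnc2, a Kv3-type potassium channel of fast-spiking neurons, had pituitary levels of 6.15, 6.20 and 6.39 in controls and 6.82, 6.80 and 6.68 with TCDD. Hypothalamus levels were 6.87, 6.93 and 6.85 in controls and 6.55, 6.64 and 6.40 with TCDD. The tissues moved towards each other's control level. The difference was 0.87 (95% interval 0.57 to 1.17, adjusted p = 0.0270), from 0.52 ± 0.10 and −0.35 ± 0.10. Other probes of Kcnc2 gave 0.52 (adjusted p = 0.297), with a hypothalamus effect of 0.00, and −0.12 (adjusted p = 0.774, not detected in all controls), so its probes disagreed on the opposed pattern. The call was lost without 8 of the 12 arrays (0.0643 to 0.103), all except hypothalamus control replicate 5, hypothalamus TCDD replicate 3, pituitary control replicate 3 and pituitary TCDD replicate 5. It was also lost with no background correction (0.0732), a variance trend on intensity (0.0582) and the authors' values (0.21, 0.0612), within 0.0161 to 0.183 over all alternatives.

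Mlc1 encodes a membrane protein of astrocytes, named after a human leukoencephalopathy. In the hypothalamus it was at 9.10, 9.30 and 9.48 in controls and 9.59, 9.67 and 9.78 with TCDD. In the pituitary it was at 6.22, 5.75 and 6.32 in controls and, with TCDD, at 5.26, 5.06 and 5.24, where no array detected it. The hypothalamus groups were close but did not overlap, and the pituitary fall ended below background, so that it can only be given as at least 1.55-fold lower. The measured difference was −1.29 (95% interval −1.75 to −0.84, adjusted p = 0.0275). The call held without hypothalamus control replicate 5, pituitary control replicate 2 or pituitary TCDD replicate 5 and was lost without any other single array (0.0585 to 0.0807). With the authors' values the difference was −0.48 (0.0680), within 0.00825 to 0.129 over all alternatives.

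Sdf2l1, a chaperone cofactor of the endoplasmic reticulum, had pituitary levels of 7.80, 7.73 and 7.73 in controls and 7.03, 7.27 and 6.94 with TCDD. Hypothalamus levels were 6.56, 6.74 and 6.56 in controls and 6.89, 6.77 and 6.97 with TCDD. The pituitary groups were clearly apart and the hypothalamus groups nearly touched. The difference of −0.93 (95% interval −1.26 to −0.61, adjusted p = 0.0270) held without hypothalamus TCDD replicate 3 or pituitary TCDD replicates 2 or 5. It was lost without any other single array (0.0526 to 0.0872), with median scaling (0.0717) and with a variance trend on intensity (0.0533). Its adjusted p ranged from 0.0204 to 0.279 across the alternatives, and the authors' values gave −0.32.

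Tnnt3, the fast skeletal troponin T, was at 6.36, 6.53 and 6.45 in control and 6.12, 5.79 and 5.87 in TCDD pituitaries. Hypothalamus levels were 5.66, 5.68 and 5.71 in controls and 6.06, 6.17 and 5.98 with TCDD. All of these values lay within about 1 log2 unit of the lowest detected signal, and the groups of both tissues were apart. The difference of −0.91 (95% interval −1.23 to −0.59, adjusted p = 0.0275) held on leaving out pituitary TCDD replicate 1 and on leaving out no other array (0.0530 to 0.110). It was lost with no background correction (0.0891), an offset of 50 (0.0566), median scaling (0.0661), a variance trend on intensity (0.0511) and the authors' values (−0.18, 0.0917), within 0.0175 to 0.272 over all alternatives. The signs of both tissue effects of all 5 opposed genes were the same under every alternative in which the gene was described. The genes were chosen by these signs on the same arrays, so this adds no support.

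**Figure D3:**
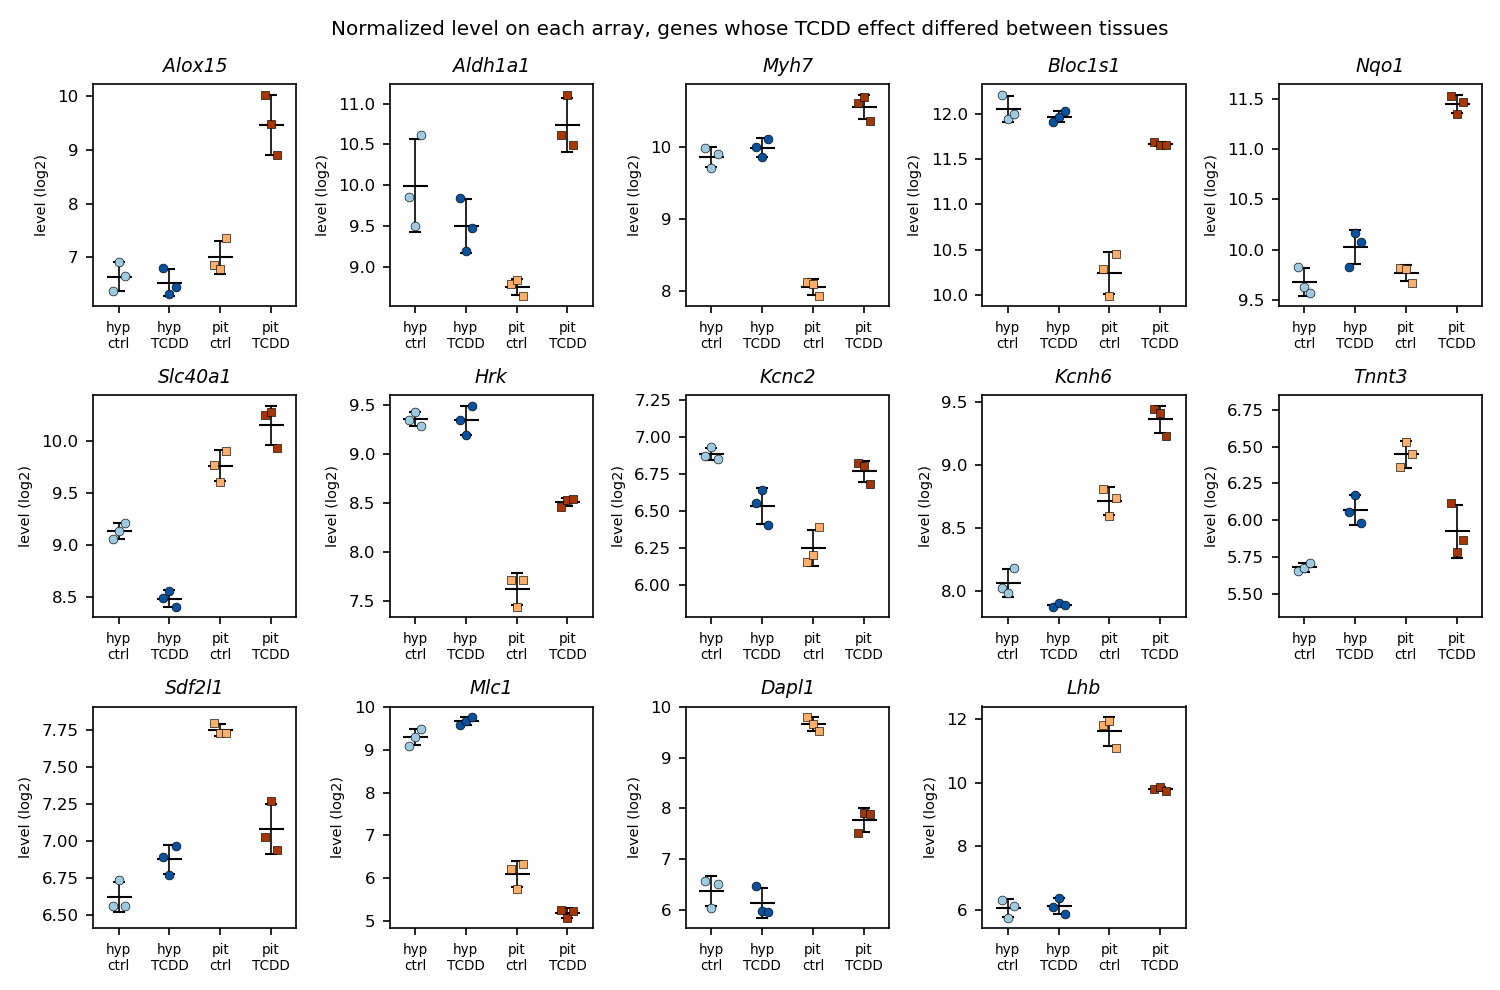
Normalized log2 level (y axis) of the 14 genes whose TCDD effect differed between the tissues, by tissue and treatment (x axis); points are arrays, horizontal bars group means and error bars 1 SD, n = 3, and the y axes differ between panels. Alox15, Aldh1a1, Myh7 and Bloc1s1 climb in the pituitary while the hypothalamus groups overlap, and the TCDD arrays of Slc40a1 and Tnnt3 lie on opposite sides of their controls in the 2 tissues.

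**Figure D4:**
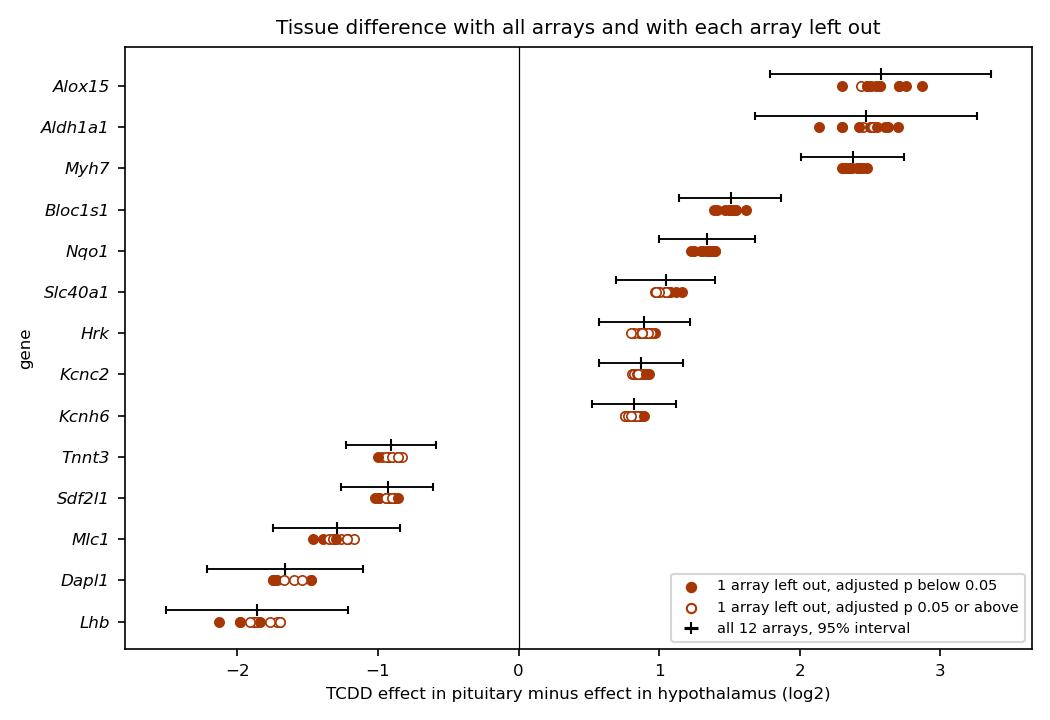
Difference of the TCDD effects (pituitary minus hypothalamus, log2, x axis) for each of the 14 genes (y axis); black bars are the estimate and 95% interval with all 12 arrays, and points the estimate with 1 array left out, filled where the adjusted p was below 0.05. Every point keeps the sign of its gene, and all 12 points are filled for Myh7, Bloc1s1 and Nqo1 only.

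Probes called within the pituitary were then read in the hypothalamus, whose arrays and controls are separate. The pituitary response passed at 43 of the described probes, 30 higher and 13 lower, against 0.668%, 0.384% and 0.284% of all tested probes, and the hypothalamus response at 0, against 0.0230% of all tested (0.00768% higher, 0.0154% lower). At an unadjusted p below 0.05 the hypothalamus had 1105 probes, 11.5% of those described and 10.9% of all tested, and without hypothalamus control replicate 5 it passed at 9. Of the 30 that rose in the pituitary (median 0.96), 19 had a positive hypothalamus estimate, against 49.6% of all described probes, with a median of 0.05. In 5 of them the hypothalamus estimate was positive at an unadjusted p below 0.05, and in 1 it was negative. Of the 13 that fell (median −0.71), 4 had a negative hypothalamus estimate, against 50.4% of all described probes, with a median of 0.05, and 3 were positive at an unadjusted p below 0.05. Hypothalamus estimates of these 43 probes ran from −0.49 to 2.04, the highest being Cyp1b1. The count of 43 was 22 or 20 without pituitary control replicates 1 or 2 and 20 without pituitary TCDD replicate 1. The difference passed for 13 of the 43. The other 30 passed in the pituitary only, and their difference from the hypothalamus was not established by its own test: Sox14 (1.02, adjusted p = 0.0723) and Galnt18 (0.94, adjusted p = 0.0723) came nearest among the rises with a symbol and Ube2c (adjusted p = 0.0738) among the falls.

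Gene lists held 275 described genes, and 0.145% of all described probes passed the difference. The lists were chosen with earlier results of these data known, so their calls cannot be weighed against that share. Members beyond those the naming rule gives were chosen after their values were seen. Of 28 lists, 6 held a called gene: AhR targets (Nqo1), gonadotroph genes (Lhb), retinoid genes (Aldh1a1), endoplasmic reticulum stress and heat shock (Sdf2l1), iron and haem (Slc40a1) and skeletal muscle markers (Myh7 higher, Tnnt3 lower). The median difference over all described probes was 0.00. Median scaling in place of quantile normalization moved that median to 0.14, with a hypothalamus median of −0.12, so list medians under it are read against 0.14.

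Only 2 AhR targets could be described, Cyp1b1 and Nqo1. The receptor gene Ahr had a pituitary effect of −0.17 and a hypothalamus effect of −0.13, a difference of −0.03 (95% interval −0.50 to 0.43, adjusted p = 0.964). Hsp90aa1, a chaperone of the unbound receptor (−0.04), and Hif1a, a related factor that itself pairs with ARNT (0.07), did not pass. NRF2 and oxidative stress genes, 0 of 15 called, had a median difference of −0.02, from Gpx1 (−0.43) to Nfe2l2 (0.38). The other antioxidant genes Gclc (−0.02), Gclm (0.05), Txnrd1 (−0.19) and Hmox1 (0.20) did not pass.

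Among 9 described gonadotroph genes, of 22 listed, Lhb was the only call and the median was −0.02. Nr0b1 (0.55), Egr1 (0.49), Fst (0.33) and Inha (0.32) had positive and Bmp4 (−0.38) and Gata2 (−0.32) negative estimates that did not pass. Fshb, Gnrhr and Pitx1, also listed, were detected on no hypothalamus array and so were left out. Their mean pituitary levels were 9.24, 8.62 and 12.71 in controls and 5.92, 7.16 and 12.61 with TCDD. Fshb was detected on 2 of the 3 TCDD pituitary arrays, so the size of its fall is not exact. Other anterior pituitary genes had 0 of 11 called and a median of −0.03, with Pomc, the precursor of ACTH, at 0.08 (95% interval −0.31 to 0.46, adjusted p = 0.888). Hypothalamic neuropeptide genes had 0 of 21 called and a median of 0.09, with Trh at −1.0 (adjusted p = 0.278) and Cartpt at 0.73 (0.350). Gnrh1, the gonadotropin-releasing hormone gene, was at 0.05 (95% interval −0.64 to 0.74, adjusted p = 0.964). Hypothalamic transcription factor genes had a median of −0.20 over 10, and Sox14 gave adjusted p = 0.0227 without pituitary TCDD replicate 5, within 0.0109 to 0.201 over all alternatives.

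Cell cycle genes had 23 of 25 estimates below 0 and a median difference of −0.35, from −0.35 in the pituitary and 0.13 in the hypothalamus. None passed, and the largest were Plk1 (−0.78), Aurka (−0.77), Cenpf (−0.73) and Mcm5 (−0.72), which act in mitosis and DNA replication. Mcm5 was at 7.93, 7.97 and 8.03 in control and 7.52, 7.64 and 7.39 in TCDD pituitaries, and at 6.49, 6.81 and 6.48 in control and 6.92, 6.77 and 6.86 in TCDD hypothalami. Its pituitary groups were apart and its hypothalamus groups overlapped (difference adjusted p = 0.119). The list median was −0.28 to −0.43 on leaving out 1 array, and −0.18 with median scaling. Cholesterol synthesis genes had 0 of 14 called and a median of −0.27, which ran from −0.05 to −0.45 on leaving out 1 array.

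The median was −0.14 over 20 genes of endoplasmic reticulum stress and heat shock, 17 of them below 0, and 0.04 with median scaling. Next to Sdf2l1 stood Hspb1 (−0.83, adjusted p = 0.331), Manf (−0.52, 0.185) and Dnajc3 (−0.41, 0.303), none of which passed. Iron and haem genes had a median of 0.02 over 12, and retinoid genes 0.01 over 8, near that of all probes. Further lists with 0 called and a median near 0 were immediate early genes (0.12 over 11), histone deacetylases and acetyltransferases (0.07 over 12), lipoate and TCA cycle genes (0.06 over 18) and receptors for steroid and thyroid hormones (0.04 over 4). Hdac1 was at −0.21 (95% interval −0.62 to 0.19, adjusted p = 0.683) and Hdac2 at −0.15 (95% interval −0.40 to 0.10, adjusted p = 0.637).

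The 2 called skeletal muscle markers differed in opposite directions. Myh7 was the only one of 11 with a positive difference, and the median was −0.44, with Tnnc2 at −1.23 (adjusted p = 0.118), Acta1 at −0.90 (0.375) and Myl1 at −0.74 (0.202) beside the called Tnnt3. Summed over the 18 markers with a probe other than Myh7, the normalized signal was 2362 to 2910 in control and 1649 to 2043 in TCDD pituitaries, and 3015 to 3557 in control and 3345 to 3734 in TCDD hypothalami. The TCDD pituitaries lay below their controls and the hypothalamus groups overlapped. Tnni1, Myod1 and Mb, markers of the same list, were detected on no array. Tnnt3 is itself part of the sum. The part of muscle cells in the results of Tnnt3 and Myh7 was not tested.

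Nerve cell markers were high on pituitary TCDD replicate 5. Sensory neuron markers had a median difference of 1.23 over 6, with all 6 above 0 and 0 called, and 0.05 without that array. Their summed signal over 12 genes was 38779 on it, against 3418 and 3743 on the other TCDD and 1533 to 7472 on the control pituitaries, with Calca and Scn9a detected nowhere. Neuron markers had a median of 0.41 over 12, and −0.32 without that array, whose sum of 66935 stood against 17742 to 26584 on the other pituitary arrays. Oligodendrocyte and Schwann markers, with 7 of 8 above 0 and a median of 0.42, had 0.28 without it, with Bcas1 at 1.19 (adjusted p = 0.305) and Mbp at 0.84 (0.361). Their sum was 9676 to 11029 in control pituitaries, 11668 to 16680 with TCDD, and overlapped in the hypothalamus at 7196 to 8222. Of the 14 called differences 12 were also called without that array, Hrk and Tnnt3 being the exceptions.

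Endothelial markers had a median of −0.38 over 8 (−0.21 without pituitary TCDD replicate 5), with 0 called, Ets1 at −0.72 and Vwf at 0.85 (adjusted p = 0.300). Acvrl1 was higher with TCDD in both tissues beside an endothelial sum, over 11 genes, of 23840 to 26726 in control and 21744 to 27641 in TCDD pituitaries and of 6860 to 7468 in control and 7852 to 9716 in TCDD hypothalami. TCDD and control sums overlapped in the pituitary and not in the hypothalamus, and their part in the Acvrl1 result was not tested. Mlc1 lay beside astrocyte and radial glia markers with a median of −0.07 over 10, whose sum overlapped between control (53699 to 61107) and TCDD (55363 to 64681) pituitaries and between control (58810 to 67189) and TCDD (57507 to 62431) hypothalami. Blood (−0.11 over 9), microglia and macrophage (−0.22 over 6), mesenchyme and bone (−0.17 over 11), choroid plexus (−0.22 over 3) and other forebrain markers (0.06 over 3) had 0 called. The last 3 medians rested on single arrays. The mesenchyme and bone median was 0.18 without hypothalamus control replicate 5, 0.15 without hypothalamus TCDD replicate 3 and −0.71 without hypothalamus control replicate 3. The choroid plexus median was 0.01 without hypothalamus TCDD replicate 3, where its sum was 5632 against 1381 to 1764 on the other hypothalamus arrays, and −0.01 without pituitary control replicate 1, where its sum was 9236 against 3166 to 3492 on the other pituitary arrays. The other forebrain median was −0.53 without hypothalamus TCDD replicate 4 and −0.28 without hypothalamus control replicate 5. The astrocyte and radial glia median ran from −0.27 to 0.16 on leaving out 1 array. Mast cell markers had 1 describable gene, Kit (0.05), and their sum over 13 genes was 1296 to 2434 in control and 867 to 1061 in TCDD pituitaries. In the hypothalamus the sum was 748 to 812 in controls and 756 to 1069 with TCDD. Mcpt4, Mcpt8, Fcer1a and Ms4a2, markers of the same list, were detected on no array.

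**Figure D5:**
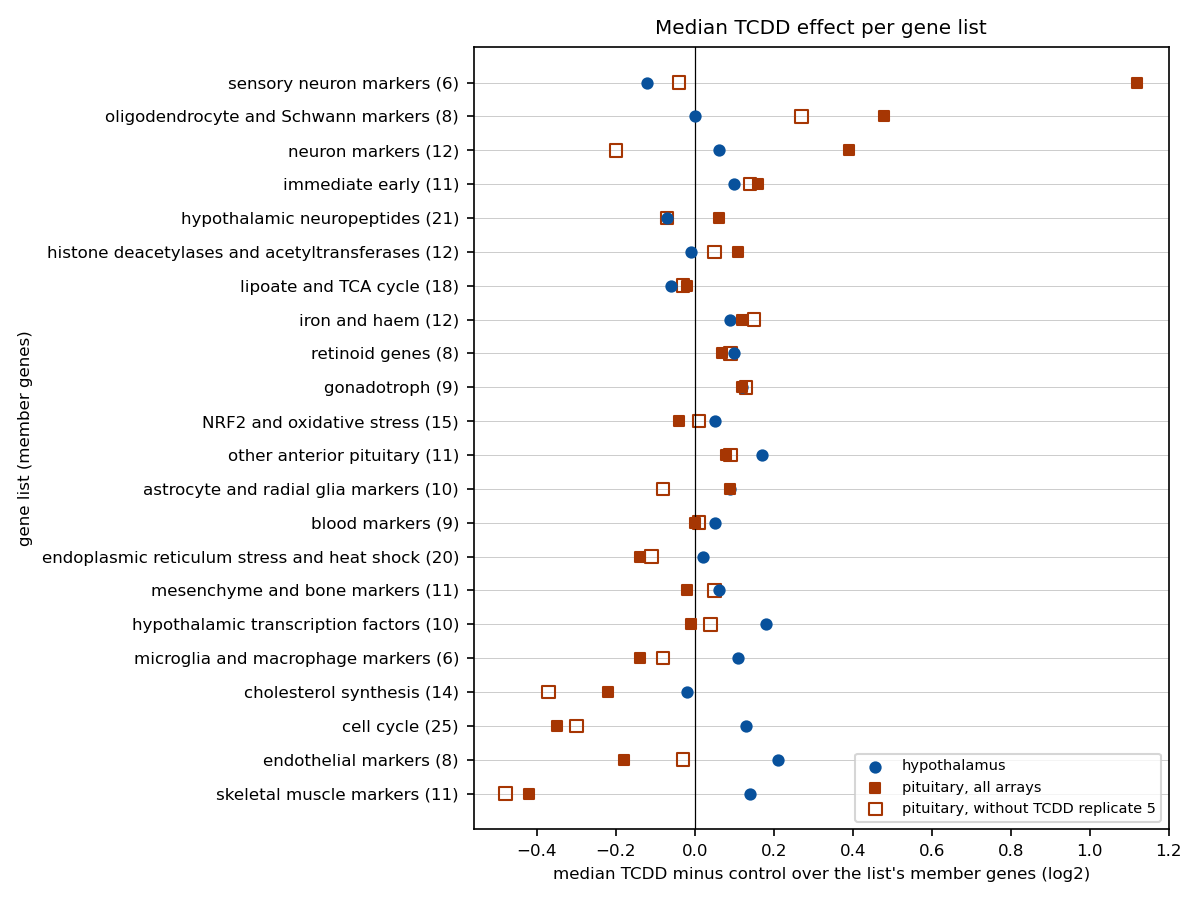
Median TCDD effect (TCDD minus control, log2, x axis) over the described genes of each list with 6 or more of them (y axis, number in brackets), in the hypothalamus (circles), the pituitary (filled squares) and the pituitary without TCDD replicate 5 (open squares). Sensory neuron and neuron markers lie at 1.12 and 0.39 in the pituitary with all arrays and at −0.04 and −0.20 without that array, and cell cycle genes lie at −0.35 and −0.30.

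A further 12 probes passed the difference but were not detected in all controls, so that a fall could not be measured in at least 1 tissue. Cyp1a1, Cyp1a2, Ahrr and Ugt1a6, known AhR targets, and Fetub, Or5m8 and ILMN_1357002 had the higher effect in the pituitary, and Fshb, Tpsab1, Mcpt10, Ces1c and Rbp7 the lower. For Cyp1a1, Cyp1a2 and Ahrr no control array of either tissue and no TCDD hypothalamus array exceeded background, and all 3 TCDD pituitary arrays did. Cyp1a1, Cyp1a2, Ahrr, Ugt1a6 and Fetub reached the 3 detecting arrays needed for testing only through the TCDD pituitary, where they were high. Fshb, Mcpt10, Ces1c and Rbp7 did so only through the control pituitary. The calls of these probes therefore add no support to a difference between the tissues. Fshb, the β-subunit of follicle-stimulating hormone, was not detected on any hypothalamus array, so its difference from the hypothalamus compares a measured pituitary change with background. ILMN_1357002 was the reverse, detected on 3 control and 2 TCDD hypothalamus arrays and on no pituitary array. Its difference compares a hypothalamus change with pituitary background. Gnrhr, Cga, Prl and Arnt also fell outside the rule, and no probe was named Tiparp or Gh1.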

How the data were processed

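Each array was hybridised with labelled RNA of fetal pituitary or hypothalamus on 1-colour Illumina RatRef-12 BeadChips, per the labels' protocols. The deposited table holds non-normalized bead intensity values and a detection p-value for each probe and array, per the file headers. A second deposited table holds values on a log2-like scale processed by the authors, with arrays of a tissue sharing 1 distribution; its log base, centring and background treatment are not given in the sources used here, and it was used as an alternative only. Its array medians were 7.91 in the hypothalamus and 7.89 in the pituitary. Neither the scanner's program nor the slides are named in the labels or headers, so no slide was used as a block.

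Intensities of all 12 arrays were background-corrected and quantile-normalized with neqc (limma 3.58.1, R 4.3.3, offset 16), using the detection p-values in place of control probes, and put on the log2 scale. The test covered the 13018 probes that 3 or more arrays detected at p below 0.05. One limma model with 4 groups gave each effect, with 8 residual degrees of freedom plus 4.19 from the moderated variance, and p-values were Benjamini-Hochberg adjusted over all 13018. Intervals are 95%. The procedure was tested on simulated data. Each probe was tested on its own, and symbols came from the platform annotation (13793 probes with 1 symbol, 8730 with none).

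Genes were named by rule: called differences, shared and opposed responses, 15 fixed genes, and up to 4 called or otherwise 2 smallest-p members of each list. The members and lists were chosen with earlier results of these data known. The number of arrays limits the precision. Alternatives changed the filter, background correction, scaling, values, variance model, array weights, replicate block and each array in turn. Deviations from the group means were correlated between arrays of the same replicate number. The correlations were 0.01 to 0.03 between tissues over 3 pairs and −0.1 to 0.14 between treatments over 4 pairs. So few pairs cannot decide whether the numbers mark shared animals. The labels state no pairing, so no block was used in the main model.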

Additional observations from a re-analysis of the deposited data

Results flagged for a closer look

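For 14 genes the TCDD effect in the pituitary differed from that in the hypothalamus by the test of the difference itself (limma, adjusted p below 0.05). The pituitary effect exceeded the hypothalamus effect, on the log2 scale, by 2.58 for Alox15, 2.47 for Aldh1a1, 2.38 for Myh7, 1.51 for Bloc1s1, 1.34 for Nqo1, 1.05 for Slc40a1, 0.89 for Hrk, 0.87 for Kcnc2 and 0.82 for Kcnh6. It was below the hypothalamus effect for Lhb (−1.86), Dapl1 (−1.66), Mlc1 (−1.29), Sdf2l1 (−0.93) and Tnnt3 (−0.91). The value of Mlc1 is as measured. It was below background on all 3 TCDD pituitary arrays, so that its fall there is known only as at least 1.55-fold.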

How the results depend on the processing

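Each difference of the 14 genes kept its sign under every alternative that gave it a value (25 for 10 of them, 24 for Lhb, Dapl1 and Tnnt3, 23 for Mlc1), and Myh7 kept its call under all 25. The alternatives reuse the arrays that gave the calls, so the kept signs add no support. The counts of calls moved by over 1.5 times as follows. With members detected at p below 0.01, lower differences fell to 1 and opposed responses to 3. Without background correction opposed responses were 3 and pituitary calls 68, and an offset of 50 also gave 68 pituitary calls. Median scaling gave 3 lower differences. The authors' values gave 27 differences (15 higher, 12 lower), 27 calls on the mean effect, 10 shared, 9 opposed and 159 pituitary calls. Array weights gave 22 differences (14 higher, 8 lower), 28 calls on the mean effect, 11 shared and 151 pituitary calls. The fixed replicate block tied all arrays with the same number, control and TCDD alike, and left 4 residual degrees of freedom. It gave 2 differences, Myh7 and Dapl1 (1 higher, 1 lower), 4 calls on the mean effect, 1 shared, 0 opposed and 18 pituitary calls. The random replicate block gave 15 differences at a block correlation of 0.05. The labels share numbers without stating a pairing. The cause of these shifts was not tested, beyond the fewer members of the first alternative and the fewer degrees of freedom of the fixed block.

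Leaving out 1 array gave 4 to 15 differences (4 to 10 higher, 0 to 5 lower), 5 to 26 calls on the mean effect, 2 to 15 shared, 0 to 5 opposed, 20 to 53 pituitary and 0 to 9 hypothalamus calls. The list medians under each alternative, the marker sums and the values without pituitary TCDD replicate 5 were chosen after seeing the data. Signals near the lowest detected level, as for Mlc1, Tnnt3 and Lhb in 1 tissue or both, limit falls that could be seen.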
